A study of Mus musculus domesticus and Mus musculus domesticus x Mus musculus castaneus and Mus musculus castaneus with 27 samples.

Results

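The genes described here are 61 nuclear-encoded subunits of the mitochondrial respiratory chain, taken from a count table of 27071 mouse gene identifiers, 18394 of them protein-coding. They were chosen by symbol alone, with no expression value in the rule, though the choice was made with earlier results of these data known. The Ndufa, Ndufb, Ndufc, Ndufs and Ndufv genes stand for complex I (35 members) and Sdha to Sdhd for complex II (4). The Uqcr genes stand for complex III (8) and the Cox5 to Cox8 genes for complex IV (14). The annotation holds 64 such genes, of which Cox5b, Cox7b2 and Ndufs3 were not analysed here. The names put Ndufa4 under complex I, although its protein is now counted with complex IV, and they leave out Cox4i1, Cox4i2, Ndufab1 and Cyc1, whose values are given with the related genes.

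RNA was sequenced from mouse pluripotent stem cells (PSC) and from motor neurons (MN) made from them by differentiation. The 20 libraries used here fall into 8 groups: 2 PSC and 7 MN libraries of C57BL/6J (BL6), 2 PSC and 1 MN of CAST/EiJ (CAST), 2 MN of 129S6/SvEv (129), 2 PSC and 3 MN of the hybrid named CAS129, and 1 MN of the hybrid named 129CAS. Both hybrids join a CAST and a 129 genome, and the labels give neither the parent of origin nor the number of independent lines or cultures. RNA of the PSC and of the MN was extracted with different kits, so cell type and kit cannot be told apart.

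The respiratory chain passes electrons from NADH and succinate to oxygen and pumps protons across the inner mitochondrial membrane. Complex I (NADH dehydrogenase) and complex II (succinate dehydrogenase) feed electrons into ubiquinone, complex III (the cytochrome bc1 complex) carries them to cytochrome c, and complex IV (cytochrome c oxidase) reduces oxygen. Complex II is encoded wholly in the nucleus, whereas complexes I, III and IV combine nuclear subunits with mitochondrially encoded ones. Pluripotent stem cells are known for a high use of glycolysis and neurons for a high demand on oxidative phosphorylation.

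The libraries held 4497912 to 13620056 counts in PSC, 5612575 to 10364807 in BL6, CAST and CAS129 MN, 44572794 and 41751493 in 129 MN and 25686979 in 129CAS MN. Of 6 pluripotency markers, the 5 measured summed to between 2758 and 3482 CPM (counts scaled to library size, with TMM factors) in PSC and to at most 9.96 CPM in the BL6, CAST, 129 and 129CAS MN libraries, but to between 261 and 742 CPM in CAS129 MN. The 6 motor neuron markers summed to at most 8.76 CPM in PSC and to between 189.7 and 862 CPM in MN, and 5 pan-neuronal markers to at most 279 CPM in PSC, 733 to 929.7 in CAS129 MN and 2392 or more in the other MN libraries. The 6 fibroblast markers summed to at most 5409 CPM in PSC and to between 14462 and 50541 CPM in MN, and the part of this in the results was not tested. The 4 epithelial markers summed to between 550.5 and 1228 CPM in PSC and to at most 382 in BL6, CAST and CAS129 MN. In 129 MN they summed to between 914 and 1376 CPM and in 129CAS MN to 1413, and their part was not tested either.

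Summed over all 61 members, the level was 5814 and 8328 CPM in the BL6 PSC libraries, 7466 and 9289 in CAST PSC and 7638 and 7668 in CAS129 PSC. Against these, BL6 MN ran from 3590.1 to 4900.2 CPM with a median of 4185, CAST MN held 4099, CAS129 MN ran from 4345 to 4749.6, 129CAS MN held 3477, and 129 MN held 3073 and 3227. Every MN library lay below every PSC library. Complex I summed to 2873 ± 759 CPM (SD, n = 2) in BL6 PSC and to 1782 ± 198 (n = 7) in BL6 MN, and complex IV to 2154 ± 668 and 1123 ± 183 CPM. The MN mean was 0.522 of the PSC mean for complex IV in BL6, 0.414 in CAST and 0.533 in CAS129. For complex I these ratios were 0.62, 0.545 and 0.703, for complex II 0.661, 0.553 and 0.656, and for complex III 0.569, 0.457 and 0.476. CPM are shares of a library: in such bulk samples, fewer cells of a type and less RNA per cell cannot be told apart.

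**Figure D1:**
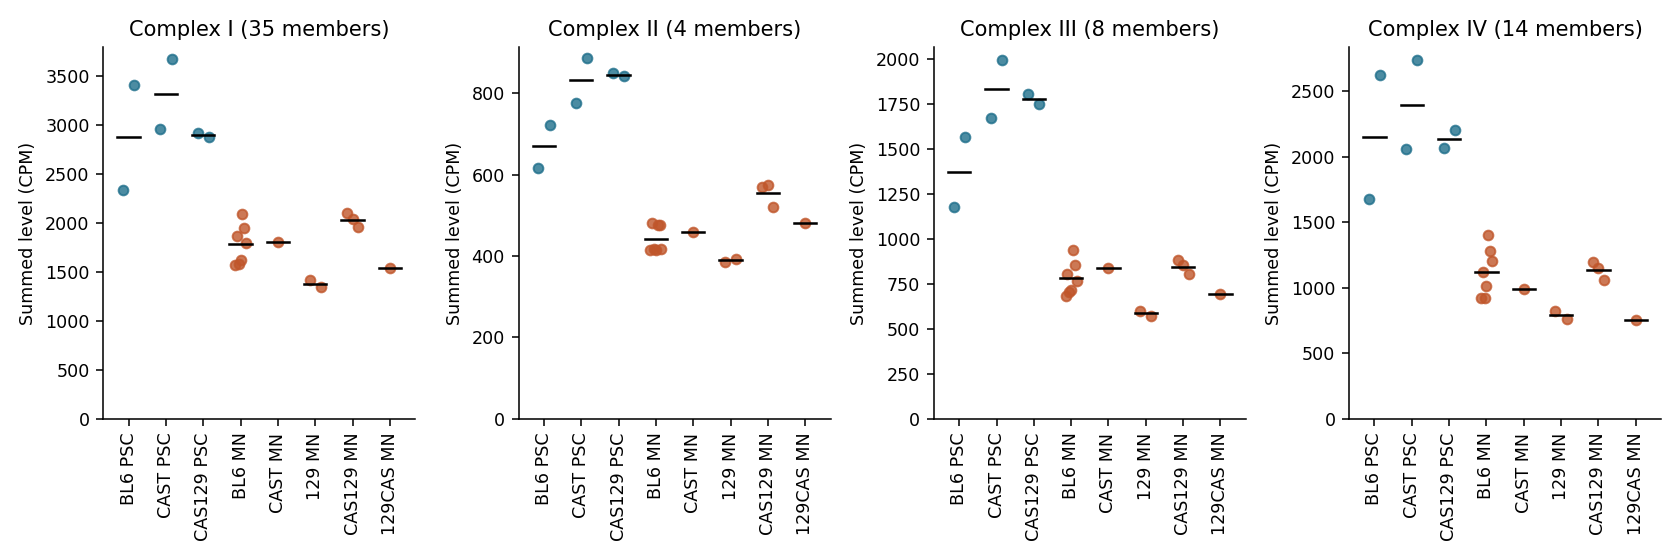
Summed level of the members of each complex in CPM (y axes, from 0) in the 20 libraries (points) by group (x axes), PSC in blue and MN in orange, with the group mean as a bar. For each complex, the MN libraries lie below the PSC libraries, as in complex I, where PSC hold 2337 CPM or more and MN 2100.1 or less.

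Levels of different genes were compared per kilobase of transcript. The order within a complex differed between the cell types, and differences between neighbours in it were not tested. In complex IV the highest means over the inbred PSC libraries were those of Cox7c, at 671 CPM per kb, Cox8a, at 646, and Cox6a1, at 583, all small structural subunits of the oxidase. Over the inbred MN libraries Cox6a1 (372), Cox8a (264) and Cox6b1 (204) were highest, and Cox7c stood at 160.2 CPM per kb. In complex III, Uqcr10 (393) and Uqcrc1 (352), a core protein of the complex, were highest in PSC, and in MN Uqcrc1 and Uqcrh, both at 132, lay above Uqcr10 at 119.8. In BL6 alone Uqcr10 lay above Uqcrc1 in PSC (352 and 284) and in MN (138 and 131). In CAST it lay above in PSC (435 and 419.7) and below in the 1 MN library (109 and 173). In complex I, the accessory subunits Ndufa7 (397) and Ndufa11 (243) lay above Ndufa4 (222) in PSC, and Ndufa4 (163) lay above Ndufa11 (125) and Ndufa7 (119) in MN. Ndufa4 lay above Ndufa11 in BL6 PSC alone (188 and 176) and below it in CAST PSC (256 and 311). In complex II the order was Sdhd (144), Sdha (109) and Sdhb (95.0) in PSC and Sdhb (83.8), Sdha (61.0) and Sdhd (56.5) in MN. The lowest means over all 20 libraries were those of the muscle forms Cox8b (0.0632) and Cox6a2 (0.423), with too few counts for a test in the comparison of cell types, and the testis form Cox8c (1.02). Ndufb2 stood at 1.29 CPM per kb, computed over an annotated transcript of 4371 bp that is the longest among the members.

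MN were compared with PSC over 17 libraries, leaving out the genotypes without PSC (129 and 129CAS), in a fit that also holds genotype. Of the 59 members with enough counts to be tested, 48 were lower in MN, 1 was higher and 10 did not pass the test (edgeR's quasi-likelihood test, Benjamini-Hochberg adjusted p under 0.05). Among all 15596 genes tested, 38.5% were lower and 36.1% higher. The members' median log2 fold change was −0.91, against −0.05 over all genes. By complex, 27 of 35 members of complex I fell, 3 of 4 of complex II, 7 of 8 of complex III and 11 of the 12 tested of complex IV. In BL6 and CAST alone, 33 of 59 members had every one of the 8 MN libraries below every one of the 4 PSC libraries, against 24.8% of all genes, and no member had the opposite order, against 27.5%.

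**Figure D2:**
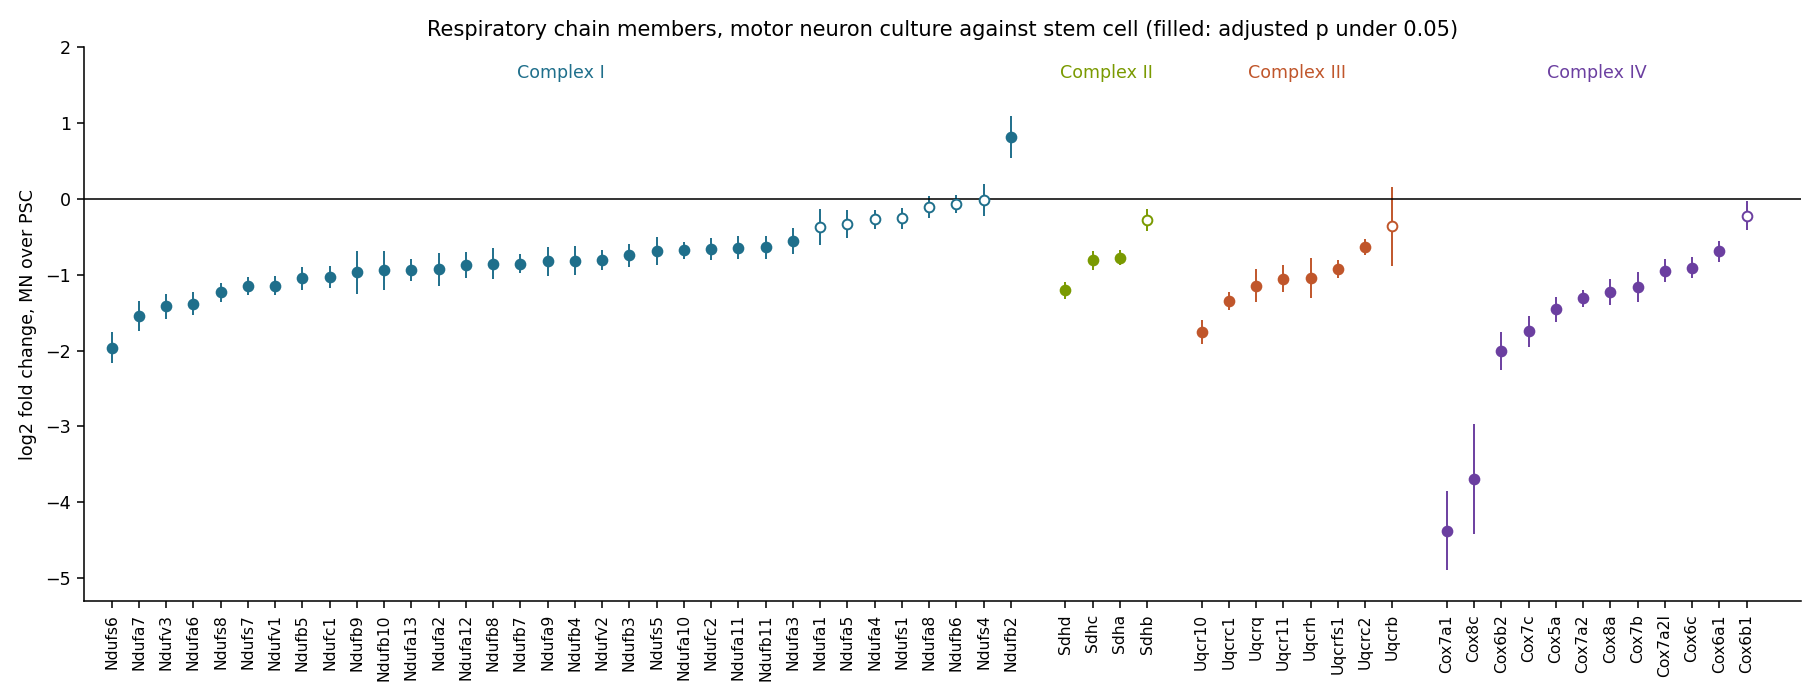
log2 fold change of MN over PSC (y axis, bars are SE) for 58 of the 59 tested members (x axis), ordered within each complex. Filled points passed an adjusted p of 0.05. All but Ndufb2 lie below 0, from −0.02 for Ndufs4 to −4.38 for Cox7a1.

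Complex I holds a set of core subunits that carry the flavin and the iron-sulfur clusters, and accessory subunits around them. Among the nuclear core subunits, Ndufs8 fell by 1.23 on the log2 scale, Ndufs7 by 1.15, Ndufv1 by 1.14 and Ndufv2 by 0.80. Ndufs1, the largest core subunit, had a log2 fold change of −0.26 ± 0.14 (SE) with an adjusted p of 0.097. The largest fall in the complex was that of Ndufs6, an accessory subunit that binds zinc. Its level was 69.1 and 115 CPM in BL6 PSC, 50.4 and 67.4 in CAST PSC and 40.5 and 31.1 in CAS129 PSC. In BL6 MN it ran from 12.2 to 23.8 CPM with a median of 21.2, in CAS129 MN from 14.1 to 17.6, and it was 19.2 in CAST MN. The groups did not overlap, and the log2 fold change was −1.96 ± 0.20 (adjusted p = 1.4e-07). Ndufa7 (−1.55), Ndufv3 (−1.42) and Ndufa6 (−1.38) followed.

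Ndufb2, an accessory subunit of the membrane arm, was the member called higher in MN, by 0.82 ± 0.28 on the log2 scale (adjusted p = 0.014), at a low level. It held 2.09 to 6.45 CPM in the 6 PSC libraries and 3.03 to 10.2 CPM in the MN libraries of the same genotypes, so the groups overlapped. Without the CAST MN library the adjusted p was 0.067. The members of complex I with no call besides Ndufs1 were Ndufa1, Ndufa4, Ndufa5, Ndufa8, Ndufb6 and Ndufs4, with log2 fold changes between −0.37 and −0.02.

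In complex II, the membrane anchors Sdhd (−1.20 ± 0.11) and Sdhc (−0.81 ± 0.12) and the flavoprotein Sdha (−0.77 ± 0.10) fell. Sdhd held 136 and 170 CPM in BL6 PSC, 190.1 and 211 in CAST PSC, and 64.0 to 82.6 with a median of 67.5 in BL6 MN. The iron-sulfur subunit Sdhb held 89.2 and 97.3 CPM in BL6 PSC, and 83.2 to 118 with a median of 93.5 in BL6 MN. Its BL6 libraries overlapped between the cell types, and over all genotypes its log2 fold change was −0.28 ± 0.15 (adjusted p = 0.088).

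In complex III, the small subunit Uqcr10 fell by 1.76 on the log2 scale (SE 0.16, adjusted p = 2.9e-08), from 127 and 179 CPM in BL6 PSC to 46.1 to 76.4 in BL6 MN. The core protein Uqcrc1 fell by 1.35 (SE 0.12) and its partner Uqcrc2 by 0.63, while the iron-sulfur protein Uqcrfs1, which passes electrons to cytochrome c1, fell by 0.92. Uqcrb, a ubiquinone-binding subunit, had no call (−0.36 ± 0.52, adjusted p = 0.54). It held 77.6 CPM in BL6 PSC replicate 1 and 1.63 in replicate 2, and 52.1 and 149.6 in the CAS129 PSC libraries, against 33.8 to 69.3 in BL6 MN. Its 4 near-identical copies elsewhere in the genome reach 98.2% identity, and whether they bear on that spread was not tested.

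Cox5a, a subunit of complex IV encoded at chr9:57521274-57532426 on the plus strand (GRCm38), held 214 and 199 CPM in BL6 PSC, 339 and 407 in CAST PSC, and 409 and 370.1 in CAS129 PSC. In BL6 MN it ran from 85.3 to 136 CPM with a median of 115. It held 120.1 in CAST MN and 103 to 137 in CAS129 MN. No MN library reached the lowest PSC library, and the log2 fold change was −1.45 ± 0.16 (adjusted p = 4.1e-07). The other broadly expressed subunits followed: Cox7c fell by 1.74, Cox7a2 by 1.31, Cox8a by 1.23, Cox7b by 1.16, Cox7a2l, a factor of respiratory supercomplexes, by 0.94, Cox6c by 0.91 and Cox6a1 by 0.69. Cox6b1, at the face of the oxidase that meets cytochrome c, was the exception (−0.22, adjusted p = 0.8): in BL6 it held 109 and 154 CPM in PSC and 115 to 159 in MN.

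Several subunits of complex IV exist as paralogous forms with restricted expression, and these held the largest falls. Cox7a1, the form of heart and skeletal muscle, held 9.26 and 26.3 CPM in BL6 PSC, 9.76 and 29.1 in CAST PSC, and 1.25 and 6.26 in CAS129 PSC. In BL6 MN it ran from 0.39 to 2.07 CPM with a median of 1.27, and it was at 0 in CAS129 MN replicates 2 and 3. Only BL6 MN reached the lowest CAS129 PSC value, and the log2 fold change was −4.38 ± 0.53 (adjusted p = 8.1e-07). Its broadly expressed counterpart Cox7a2 held 119 and 180.5 CPM in BL6 PSC and 52.8 to 76.0 in BL6 MN. Their coding sequences, in which capitals mark the positions that differ or face a gap in a global alignment, match at 152 of 252 aligned positions (60.3%).
Cox7a1: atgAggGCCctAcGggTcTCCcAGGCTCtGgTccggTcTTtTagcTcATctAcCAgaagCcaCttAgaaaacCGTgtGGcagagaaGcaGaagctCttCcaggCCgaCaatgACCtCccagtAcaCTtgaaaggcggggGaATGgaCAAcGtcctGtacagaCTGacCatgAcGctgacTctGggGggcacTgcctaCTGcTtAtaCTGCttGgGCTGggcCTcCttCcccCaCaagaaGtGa
Cox7a2: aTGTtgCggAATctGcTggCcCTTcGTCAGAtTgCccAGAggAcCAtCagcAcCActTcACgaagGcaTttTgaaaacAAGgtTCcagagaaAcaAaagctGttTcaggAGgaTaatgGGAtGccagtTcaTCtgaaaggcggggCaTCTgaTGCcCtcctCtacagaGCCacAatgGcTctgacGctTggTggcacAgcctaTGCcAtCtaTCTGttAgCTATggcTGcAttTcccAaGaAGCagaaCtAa

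Cox6b2, a testis form of Cox6b1, fell from 60.2 and 89.3 CPM in BL6 PSC and 41.5 and 84.3 in CAST PSC to between 9.75 and 23.3 in BL6 MN and 9.29 in CAST MN. Its log2 fold change was −2.01 ± 0.25 (adjusted p = 1.2e-06), and CAS129 MN, at 35.2 to 36.2 CPM, lay above BL6 MN. Cox8c, another testis form, was at or below 3.38 CPM in every library and had counts in 1 of 7 BL6 MN libraries (−3.69 ± 0.72, adjusted p = 0.00019). At such counts the fitted fold change depends on the prior count that edgeR adds.

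**Figure D3:**
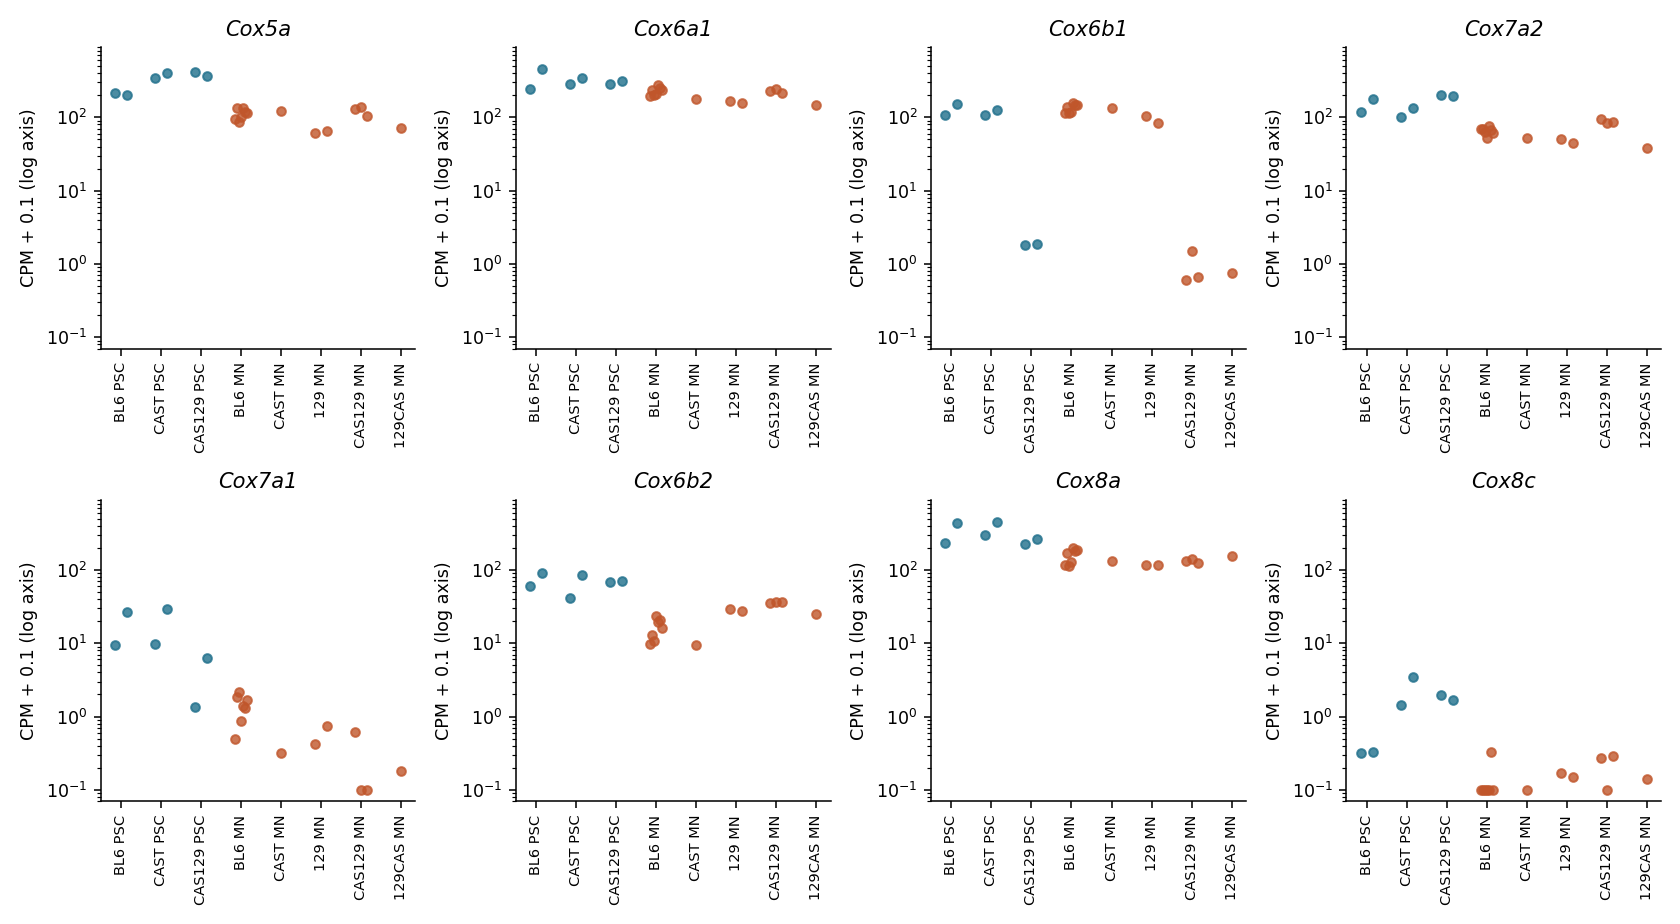
CPM + 0.1 (log y axes) of 8 subunits of complex IV in the 20 libraries (points) by group (x axes), PSC in blue and MN in orange. Cox7a1 reaches 29.1 CPM in PSC and at most 2.07 in MN, and Cox6b1 lies at 1.76 CPM or less in the hybrid groups and at 83.5 or more in the inbred ones.

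Genes that work with the chain were followed in lists. Of 14 ATP synthase genes tested, 13 fell and 1 had no call, with Atp5a1 at −1.56 ± 0.12 and Atp5b at −1.25 ± 0.14, the main subunits of its F1 head. All 6 measured genes that the name pattern leaves out fell, among them Cox4i1 (−1.23 ± 0.14) and Cyc1 (−1.62 ± 0.15), cytochrome c1 of complex III. Among assembly factors, 9 of 14 for complex I, 4 of 10 for complexes II and III and 10 of 17 for complex IV fell, and 1, 2 and 1 rose, beside the 38.5% of all genes that were lower and the 36.1% that were higher. The share that fell among those for complexes II and III lies near that of all genes. Ecsit (−1.40) and Ndufaf7 (−1.44) fell and Tmem126b (0.52) rose in the first of these lists, Uqcc2 (−1.66) fell and Ttc19 (0.91) rose in the second, and Cox15 (−0.91) fell and Cox19 (0.60) rose in the third. Of 10 citric acid cycle genes, 6 fell and 1 rose, which was Dld at 0.46.

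Among 14 regulators of mitochondrial genes, 11 fell and 1 rose, beside the 38.5% of all genes that were lower and the 36.1% that were higher. The riser was Ppargc1a, a coactivator of mitochondrial biogenesis (adjusted p = 2.8e-08). Its mean was 0.0359 CPM in BL6 PSC and 0 in the other PSC groups, against 9.56 CPM in BL6 MN, 22.8 in CAST MN and 2.03 in CAS129 MN. Pprc1 (−1.66 ± 0.17) and Gabpa (−1.14 ± 0.21) fell. In the list of membrane and import proteins 8 of 10 fell, Vdac1 by 1.34 among them, and Slc25a4, the adenine nucleotide carrier of heart and muscle, rose by 0.81 ± 0.14. Of 13 mitochondrially encoded subunits 3 were measured, and none passed the test between the cell types (log2 fold changes between 0.74 and 1.28, with SE of 0.76 to 1.02). Their counts differed between genotypes: the mean of mt-Cytb was 874 CPM in BL6 PSC and 2283 in BL6 MN and 0 in every other group. For mt-Cytb the comparison of cell types therefore rests on the BL6 libraries. That of mt-Nd5 was 1595 CPM in BL6 MN, 68.6 in 129 MN (−4.69 ± 0.63, adjusted p = 0.00018) and 0 in the hybrid groups, and that of mt-Nd6 was 503 CPM in BL6 MN and 0 in 129 MN. Whether these differences are of RNA level or of how reads were mapped and counted was not tested.

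The members are short. Their median transcript was 763 bp, against 3021 bp for the 14450 protein-coding genes tested, and 91.5% of them were under 2000 bp, against 26.5%. Short genes as a whole were lower in MN. Among 835 genes under 1000 bp the median log2 fold change was −0.89 and 55.2% were called lower. The 35 members of that class had a median of −0.91, and 28 of them were lower. Among 3001 genes of 1000 to 2000 bp the median was −0.57 and 50.5% were lower. There the 19 members had a median of −0.94, with 17 lower. With the length trend of each library removed by an offset, an alternative added after the data were seen, 33 members were lower and 4 higher, and the median was −0.41 against −0.21 over all genes. Of all 15596 genes, 6504 were lower and 5105 higher in that setting. Cox5a (−0.86), Uqcrc1 (−1.05) and Sdha (−0.89) were still called lower, Cox6a1 (−0.03), Ndufb4 (−0.14) and Ndufb2 (0.30) were not called, and Cox6b1 (0.52), Ndufa4 (0.35) and Ndufb6 (0.56) were called higher. What sets the length trend was not tested.

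**Figure D4:**
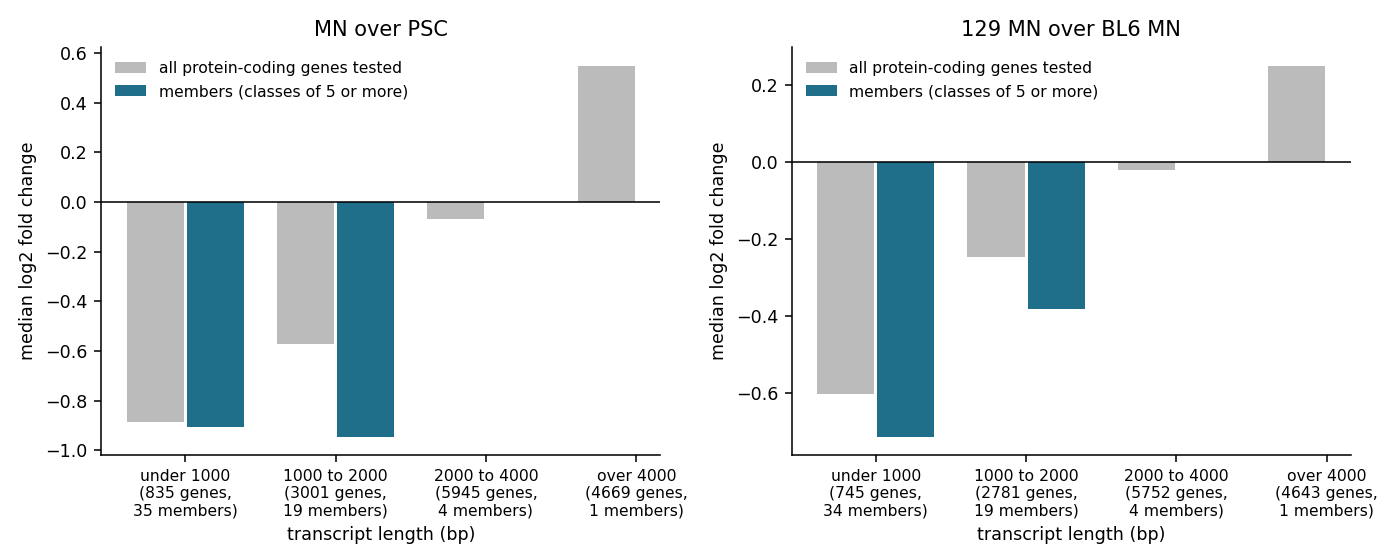
Median log2 fold change (y axes) by transcript length class (x axes) for all protein-coding genes tested (grey) and for the members (blue, classes of 5 or more members), for MN over PSC (left) and 129 MN over BL6 MN (right). Under 1000 bp the medians were −0.89 and −0.91 on the left, and −0.60 and −0.71 on the right.

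Within genotypes, tested in 1 fit over the 8 groups, 45 of 59 members were lower and 1 higher in BL6 MN than in BL6 PSC, against 34.2% and 36.0% of all 15846 genes. In CAST 42 were lower and 1 higher, against 25.7% and 30.3%, with 1 MN library assumed to vary like the other groups. In CAS129, whose MN held pluripotency markers at 261 to 742 CPM, 32 were lower and 1 higher, against 23.9% and 30.4%. Cox5a fell by 0.89 ± 0.17 in BL6, by 1.64 ± 0.30 in CAST and by 1.65 ± 0.20 in CAS129. Uqcrq (−2.23) and Uqcrh (−2.07) were among the largest falls in CAS129, against −0.70 and −0.60 in BL6, at 1.76 to 3.52 CPM in CAS129 PSC. The member called higher was Ndufb2 in BL6 and CAST and Ndufb6 in CAS129 (0.43 ± 0.18, adjusted p = 0.05 as rounded), and with RLE size factors Ndufb6 was at 0.16 (adjusted p = 0.46). The call of Ndufb2 in BL6 was lost without BL6 PSC replicate 2, without any 1 of BL6 MN replicates 1, 2, 5, 6 and 7, and with upper-quartile scaling, and that in CAST without either CAST PSC library. The BL6 count rests in part on 1 library: it was 25 lower without BL6 PSC replicate 2, against 4886 of 15784 genes. Without CAST PSC replicate 2 the CAST count was 27, against 3399 of 15766 genes. With the length trend removed BL6 gave 16 lower and 10 higher, CAST 21 and 3, and CAS129 38 and 1. All 15846 genes gave 5805 and 5146, 4597 and 4328, and 5714 and 3459 in the same order. In BL6 the share of members called lower was then below that of all genes. With RLE size factors CAS129 gave 43 lower and none higher, against 4692 and 4119 of 15846 genes.

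An interaction term compared the log2 fold change of CAS129 with that of BL6. No member passed edgeR's quasi-likelihood test, against 13.7% of all genes with a higher and 4.54% with a lower value in CAS129. At an unadjusted p under 0.05, 13 of the 59 members differed, 7 of them higher. The count of 0 depended on the processing. With RLE size factors, which moved the median of all genes from 0.26 to 0.00, 6 members were lower in CAS129. With DESeq2, where that median was −0.03, 10 were lower, and with the length trend removed 18 were. Of all 15846 genes, 1116, 1641 and 1378 were lower in these settings, in that order. The count of 0 also moved with single libraries. Without BL6 PSC replicate 1, 8 members were higher and 2 lower, against 2451 and 1213 of 15764 genes. The share higher there lay near that of all genes. Without BL6 PSC replicate 2, 3 were lower, against 608 of 15784 genes, and without CAS129 PSC replicate 2, 4 were, against 568 of 15717.

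PSC of the 3 genotypes were compared over their 6 libraries. CAST PSC had 3 members above BL6 PSC and none below by edgeR's test (none at an unadjusted p under 0.05, and none by DESeq2), against 5.74% and 4.81% of 13795 genes. These were Ndufb4 (29.3 and 32.5 CPM in BL6, 88.5 and 90.9 in CAST), Ndufb9 (21.1 and 38 against 98.6 and 124) and Cox8c. Without either one of the CAST libraries none was called, and without BL6 PSC replicate 2 only Ndufb9 was. CAS129 PSC had 9 members above and 17 below BL6 PSC, against 8.72% and 17% of genes, and 16 below CAST PSC, against 11.7%. None lay above CAST PSC by edgeR's test, against 2.27% of genes, where 3 did at an unadjusted p under 0.05 and 1 by DESeq2. Members called above BL6 included Ndufa5 (1.53 ± 0.30) and Ndufc1 (1.33 ± 0.30), both accessory subunits of complex I, and Sdhc (1.28 ± 0.32). Each of these 3 calls was lost without at least 1 of the CAS129 libraries: 1 member was called above BL6 without CAS129 PSC replicate 1, and 2 without replicate 2. Those below numbered 13 to 18 over the libraries left out.

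Some members had counts near 0 in the hybrid libraries. Of 57 members with a mean of at least 10 CPM in both inbred PSC groups, 13 were more than 8-fold below both in CAS129 PSC, against 7.23% of 8357 genes at that level. They were Ndufa1, Ndufa2, Ndufa7, Ndufa9, Ndufb10, Ndufb4, Ndufb5 and Ndufb9 of complex I, Uqcrh and Uqcrq of complex III, and Cox6b1, Cox6c and Cox7b of complex IV. This set was chosen by these values, which carry no test. Ndufb5, just inside the limit, was 9.43-fold below the lower inbred mean, and Cox7a1, just outside, 4.74-fold. No subunit of complex II was in the set.

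The choice did not use the hybrid MN libraries. Of the 13, 11 were also more than 8-fold below each inbred MN mean in CAS129 MN, and 10 in both CAS129 and 129CAS MN. Of the 604 genes of the table picked by the same limit, 89.1% and 86.3% were. Cox6b1 held 1.72 and 1.76 CPM in CAS129 PSC, 0.51 to 1.38 in CAS129 MN and 0.659 in 129CAS MN, against 83.5 to 159 in all 10 inbred MN libraries. Ndufa9 held 68.6 to 135 CPM in the inbred PSC libraries. It had 13 counts in all over the 6 hybrid libraries, none of them in CAS129 MN, which puts it at least 329-fold below BL6 MN (3 counts over the 3 libraries as the floor). Ndufa1, on the X chromosome, had no count in any of the 6, at least 97.7-fold below BL6 PSC and at least 178-fold below BL6 MN in 129CAS MN. Ndufb4 had none in the 5 CAS129 libraries and 0.453 CPM in 129CAS MN. Ndufb9 had 0.313 and 0.196 CPM in CAS129 PSC and none in CAS129 MN.

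**Figure D5:**
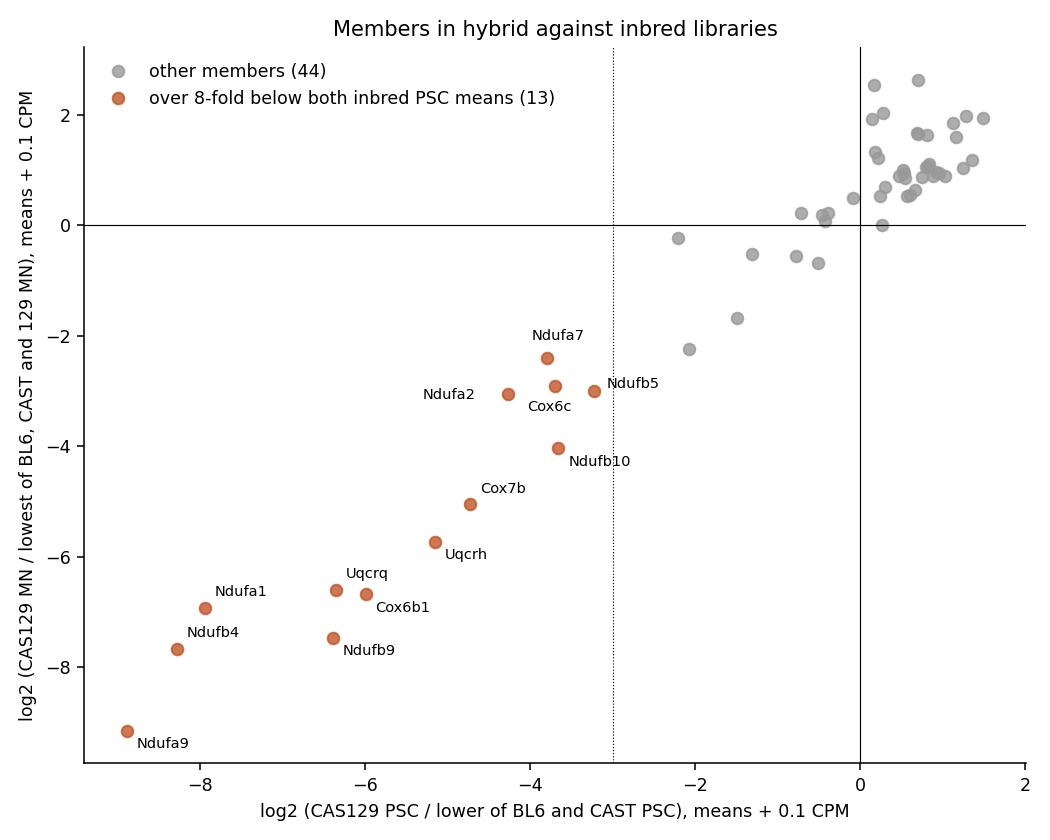
log2 ratio of CAS129 PSC to the lower inbred PSC mean (x axis) against that of CAS129 MN to the lowest inbred MN mean (y axis) for 57 members, with 0.1 CPM added to each mean. The 13 members chosen on the x axis (left of the dotted line at 8-fold) lie at the bottom left on both axes.

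Other members lay below the lower inbred PSC mean by less, among them Ndufs4 (4.25-fold), Uqcrfs1 (2.83-fold) and Ndufa11 (2.49-fold). Cox7c lay above both inbred means: it held 522 and 578 CPM in CAS129 PSC, against 259 and 512 in BL6 PSC and 279 and 400.1 in CAST PSC. Of the 13 low members, 7 have a copy of at least 90% identity over at least 50% of their coding sequence elsewhere in the annotated transcripts, and of the 44 others 16 do. Low members with a copy include Cox7b (4 copies) and Uqcrh (2), and low members with none include Cox6b1, Ndufa9 and Ndufb10. Exons of 5 of the 13 and of 12 of the 44 overlap those of another gene. Whether hybrid reads were counted against 1 genome or against both is not stated in these sources, and its part in the near-zero counts was not tested.

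The coding sequence of Ndufb4 (chr16:37647170-37654453, minus strand) is identical over all 390 bases, of which the first 300 are shown, to the processed pseudogene Ndufb4c on chromosome 15, so a read that lies within it matches both places. That of Cox7c (chr13:86044816-86046904, minus strand) is equally repeated: the pseudogene Gm12338 on chromosome 11 matches it in full, and Gm10012 on chromosome 17 differs at 2 of 192 positions, in capitals. Cox6b1 (chr7:30616861-30626151, minus strand) has no such copy, and its nearest relative among the members is Cox6b2, from which it differs at the capitals (61.3% identity over 271 aligned positions).
Ndufb4: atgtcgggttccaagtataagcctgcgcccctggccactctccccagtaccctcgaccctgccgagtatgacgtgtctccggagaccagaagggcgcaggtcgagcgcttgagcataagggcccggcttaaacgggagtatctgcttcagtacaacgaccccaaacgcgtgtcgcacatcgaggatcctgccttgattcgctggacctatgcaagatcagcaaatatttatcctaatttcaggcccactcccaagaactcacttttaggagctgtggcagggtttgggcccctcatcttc
Cox7c: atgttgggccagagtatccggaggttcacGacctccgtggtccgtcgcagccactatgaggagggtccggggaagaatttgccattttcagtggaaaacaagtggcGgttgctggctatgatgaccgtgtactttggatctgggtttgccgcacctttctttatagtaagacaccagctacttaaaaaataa
Gm10012: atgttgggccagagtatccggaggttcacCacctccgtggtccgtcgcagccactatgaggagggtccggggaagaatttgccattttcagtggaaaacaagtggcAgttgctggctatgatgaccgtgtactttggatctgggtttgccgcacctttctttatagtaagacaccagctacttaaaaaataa
Cox6b1: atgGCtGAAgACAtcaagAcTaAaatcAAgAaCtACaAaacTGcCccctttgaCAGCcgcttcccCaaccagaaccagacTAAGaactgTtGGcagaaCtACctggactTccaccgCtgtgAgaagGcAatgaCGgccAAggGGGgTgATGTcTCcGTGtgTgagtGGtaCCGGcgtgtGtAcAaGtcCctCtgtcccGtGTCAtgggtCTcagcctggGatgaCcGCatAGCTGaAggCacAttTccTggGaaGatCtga
Cox6b2: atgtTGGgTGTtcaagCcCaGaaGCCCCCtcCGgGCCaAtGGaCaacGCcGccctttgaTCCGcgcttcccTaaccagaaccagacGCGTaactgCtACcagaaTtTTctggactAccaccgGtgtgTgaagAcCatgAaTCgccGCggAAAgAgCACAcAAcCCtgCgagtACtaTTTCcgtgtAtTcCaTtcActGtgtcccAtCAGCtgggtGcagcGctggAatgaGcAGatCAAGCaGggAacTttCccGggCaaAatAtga
Ndufb4 and Cox7c have a copy with the same coding letters and Cox6b1 has none. In the hybrids Ndufb4 and Cox6b1 were near 0, while Cox7c held 260.2 CPM or more in the CAS129 libraries and 133 in 129CAS MN. That 129CAS MN value lay within the BL6 MN range of 68.7 to 136, but above CAST MN (92.8) and the 129 MN mean (45.6). The part of the copies in these counts was not tested.

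Among MN, CAS129 was compared with BL6 over the 14 MN libraries: 28 of 58 members were higher and 20 lower, against 27.0% and 32.5% of 14837 genes. The share of members that was lower, 34.5%, lay near that of all genes. The 20 lower ones include the 13 above, with Cox7a1, Ndufa8, Sdhd, Ndufs4 (−2.55 ± 0.22), Uqcrfs1 (−1.91 ± 0.14), Ndufa11 (−1.34 ± 0.12) and Sdhb (−1.14 ± 0.13). Sdhb held 45.4, 50.8 and 47.4 CPM in CAS129 MN and 83.2 to 118 in BL6 MN, with no overlap. The largest rises were those of Cox7c (1.43 ± 0.21), Ndufc1 (1.05 ± 0.12), Cox6b2 (1.04 ± 0.24) and Ndufa5 (0.92 ± 0.20). Cox7c held 316, 273 and 260.2 CPM in CAS129 MN and 68.7 to 136 with a median of 84.4 in BL6 MN. Several subunits thus stood higher and several lower within each complex: in complex III, 5 were higher and 3 lower. The CAS129 MN libraries are those with pluripotency markers at 261 to 742 CPM, against 2.52 to 9.96 in BL6 MN. Their pan-neuronal markers summed to 733 to 929.7 CPM, against 2615 to 7972 in BL6 MN, and their motor neuron markers to 201 to 231, against 237 to 724. The part of these differences in the rises and falls was not tested.

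129 MN were lower than BL6 MN in 33 of 58 members and higher in 1, against 18.1% and 18.3% of genes, with a median log2 difference of −0.57 against 0.00 over all genes. Falls were found in complex I (18 of 35), complex II (3 of 4), complex III (5 of 8) and complex IV (7 of 11). Ndufb6, an accessory subunit of the membrane arm, held 16 and 13.5 CPM in 129 MN and 41.7 to 59.1 with a median of 50.2 in BL6 MN (−1.88 ± 0.16, adjusted p = 1.7e-06). Smim27, on the opposite strand, overlaps 39.0% of its exon sequence, and whether counting used strand is not stated in these sources. Ndufa2 (−1.34 ± 0.30), Uqcr10 (−1.26 ± 0.23), Cox7c (−1.23 ± 0.28) and Ndufa3 (−1.23 ± 0.21) followed, and Cox5a, at 61.9 and 64.4 CPM, fell by 0.96 ± 0.18. Ndufb9 was the member that rose, with 46.5 and 44.2 CPM in 129 MN against 10.8 to 28.2 in BL6 MN (1.22 ± 0.30, adjusted p = 0.0083), a call lost without either 129 library (adjusted p = 0.071 and 0.053).

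These falls moved with length and with single libraries. Genes under 1000 bp had a median of −0.60 in 129 MN, with 45.1% lower, against −0.71 and 22 of 34 for the members of that length. With the length trend removed, 6 members were lower and 5 higher, against 2460 and 2098 of 14837 genes. The share of members called lower was then below that of all genes. Without 129 MN replicate 2 there were 15 lower, against 1441 of 14720 genes. Without replicate 1 there were 23, against 1719 of 14718. The calls of Ndufa2 and Cox7c were among those lost without replicate 2 (adjusted p = 0.063 and 0.064). The 129 MN libraries held 44572794 and 41751493 counts and no BL6 MN library more than 10364807, so depth and genotype cannot be told apart here. Markers of other cell types moved with this comparison. The 4 epithelial markers summed to between 914 and 1376 CPM in 129 MN and to between 82.6 and 382 in BL6 MN. The 6 fibroblast markers summed to between 16040.3 and 23661 CPM in 129 MN and to between 23663 and 50541 in BL6 MN. The part of either list in the falls was not tested. The 6 glial markers overlapped, at 42.2 to 64.3 CPM in 129 MN and 8.87 to 287 in BL6 MN.

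The single CAST MN library had 1 member above BL6 MN and none below by edgeR's test (2 below at an unadjusted p under 0.05, and 1 by DESeq2), against 5.76% and 6.58% of genes. With 1 library the spread is that of the other MN groups, which it was assumed to share. The member was Ndufb9, at 58.5 CPM against 10.8 to 28.2 (1.65 ± 0.38, adjusted p = 0.016). Ndufb9, an accessory subunit of complex I at chr15:58933756-58939488, was called above BL6 in CAST PSC, in the single CAST MN library and in 129 MN, the MN calls against the same BL6 libraries, and was near 0 in the hybrids of CAST and 129. The protein-coding gene Gm49356 shares 19.5% of its exon sequence on the same strand.

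Among the 7 BL6 MN libraries the 56 members at 10 CPM or more had a median coefficient of variation of 15%, against 17.6% for all 9729 genes at that level, and a range from 4.46% to 34.5%. Replicate 5 held the highest value of 38 of the 56 members and replicates 2 and 6 of 7 and 8, while replicate 1 held the lowest of 25 and replicate 3 of 16. The libraries were not equally far apart. Between the counts of replicates 5 and 6 the chi-square per degree of freedom was 2.96, against 9 to 120.66 for the other pairs. The summed level of complex IV ran from 921 to 1399.8 CPM over these libraries, and that of complex II from 414 to 482. The widest spread at that level was that of Ndufb9, from 10.8 to 28.2 CPM.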

How the data were processed

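The values analysed are read counts per gene, deposited by the authors as 1 table of whole, unnormalised counts for 27071 identifiers. Of its 28 columns, 20 match a labelled sample and were used, 8 were not, and 7 labelled samples were not analysed here. The submitters' processing notes name STAR, TopHat2 2.1.1, HTSeq, SAMtools and the build GRCm38 (mm10), with no role or order. For the annotation, the strand setting and the handling of hybrid reads, nothing is stated in these sources. Per the labels' protocols, RNA was DNase-treated, selected on poly-T beads and primed with random hexamers.

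Genes with at least 1 CPM in at least 2 libraries were kept for each comparison, scaled by TMM and tested with edgeR 4.0.16 (R 4.3.3, limma 3.58.1) by the quasi-likelihood test with Benjamini-Hochberg adjustment over all genes tested. SE are the absolute log2 fold change over the square root of F. DESeq2 1.42.0, RLE and upper-quartile scaling, no filter, a replicate block, leaving out libraries and a length offset served as alternatives. Coordinates, transcript lengths (the principal transcript) and sequences come from GENCODE M21 (GRCm38). A copy is a transcript of another gene with at least 90% identity over at least 50% of the coding sequence. Some of the tests were also run on simulated counts with the same spread for every gene and no length trend. That check does not cover the length trend or the uneven spread of these data.

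Members, gene lists, tests and the naming rule were chosen with earlier results of these data known. Named are Cox5a, complex II, the paralogous forms, the highest members per kb, up to 4 rises and 4 falls per comparison, members at 0 in a group, and up to 2 genes a direction in each related list. Others, such as the core subunits, were named after their values were seen, and some genes that the rule would name are not reported here. The labels do not say that replicates are separate cultures, so p-values measure the spread between these libraries, which may be technical.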

Additional observations from a re-analysis of the deposited data

How the results depend on the processing

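Of the 22 counts of members called higher or lower, those of the pooled comparison of MN with PSC were 48 to 50 lower and 0 to 1 higher over the libraries left out, but 33 and 4 with the length trend removed, an alternative chosen after seeing the data, as are all values with that trend removed. Of all 15596 genes, that setting called 6504 lower and 5105 higher. There Cox6b1 (0.519), Ndufa4 (0.349) and Ndufb6 (0.563) turned from below to above 0. Within BL6, 25 to 44 were lower and 0 to 3 higher over the libraries left out. The lower count there was 16 and the higher 10 with the length trend removed, against 5805 and 5146 of all 15846 genes. The higher count was 0 with upper-quartile scaling or without genes at 0 in a group. Within CAST these were 27 to 40 and 0 to 0. They were 21 and 3 with the length trend removed, against 4597 and 4328 of all 15846 genes. Within CAS129 they were 31 to 39 and 0 to 0. None was higher there with RLE, upper-quartile scaling, no filter, DESeq2 or without genes at 0 in a group (0 in each).

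For the difference between CAS129 and BL6, 0 to 8 were higher and 0 to 4 lower over the libraries left out (8 without BL6 PSC replicate 1, 3 lower without BL6 PSC replicate 2, 4 lower without CAS129 PSC replicate 2). The lower count was 6 with RLE, 2 with upper-quartile scaling, 10 with DESeq2, 18 with the length trend removed and 4 without genes at 0 in a group. Among all genes 1116, 839, 1641, 1378 and 994 were lower in these settings, in that order. In PSC, CAST stood above BL6 in 0 to 4 members and below in 0 to 0, with 5 above by DESeq2. CAS129 stood above BL6 in 1 to 10 and below in 13 to 18, above CAST in 0 to 0 and below in 16 to 16, with 1 above CAST with upper-quartile scaling and 1 with DESeq2. In MN, 129 stood below BL6 in 15 to 38 and above in 0 to 2. These were 6 and 5 with the length trend removed, against 2460 and 2098 of all 14837 genes. CAS129 MN stood above in 25 to 28 and below in 18 to 21. CAST MN stood above in 1 to 2 and below in 0 to 1, with 3 and 1 by DESeq2 and 2 and 1 with the length trend removed. The cause of these shifts was not tested.

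With the replicate number as a block, 47 were lower in MN overall. The higher counts within BL6, CAS129 and CAST were 0, 0 and 0, 2 were higher in the difference, and 129 MN had 16 lower and 2 higher than BL6. The numbers do not pair the libraries: correlations of same-numbered libraries' deviations ran from −0.11 to 0.38. Depth limits Cox6a2 and Cox8b, which had too few counts for a test between the cell types.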
